A study of Mus musculus with 6 samples.

Results

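The heme synthesis genes were taken as the rows of the deposited tables whose symbol is Alas1, Alas2, Alad, Uros, Urod, Cpox, Ppox, Fech or Slc25a38, that is, 8 genes for enzymes of the pathway and the gene of the mitochondrial glycine carrier. All 9 were found among the 17463 genes of the tables, and all 9 were among the 11277 genes that had enough counts to be tested. RNA was measured by poly(A) sequencing in 6 samples of C57BL/6J mouse fetal liver erythroblasts from mid-gestation embryos. Cells lacking the surface protein TER119 were grown with erythropoietin for 30 h, and those that had become TER119+, a mark of the erythroid lineage, were then sorted. The 3 control samples (C1 to C3 in the labels, called untreated there and vehicle-treated in a legend of the study) received no added cholesterol, and the 3 cholesterol samples (CHO1 to CHO3) were cultured with 40 µM cholesterol. The series thus asks how excess cholesterol changes the transcripts of maturing erythroblasts, in a culture of primary cells rather than in an embryo. A legend of the study speaks of independent experiments, but neither the labels nor the methods tie these samples to separate litters or cultures, so p-values measure only the spread between these samples, part of which may be technical.

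Heme is made in a chain that starts and ends in the mitochondrion. ALAS1, used in most tissues, or ALAS2, the erythroid form, joins glycine, which SLC25A38 brings into the matrix, with succinyl-CoA to aminolevulinic acid. ALAD, UROS and UROD then act in the cytosol, and CPOX, PPOX and FECH finish the porphyrin ring and insert iron in the mitochondrion. Erythroblasts make most of the body's heme, for hemoglobin, and loss of ALAS2 or SLC25A38 function causes sideroblastic anemia while loss of most of the other enzymes causes porphyrias. GATA1 and KLF1, transcription factors of the erythroid lineage, drive ALAS2, and an iron-responsive element in its mRNA lets iron regulatory proteins hold back its translation when iron is scarce.

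In RefSeq (GRCm38.p6), Alas2 lies on the X chromosome (chrX:150547417-150570622, + strand) and Alas1 on chromosome 9 (chr9:106233455-106247954, - strand), which also holds Slc25a38 (chr9:120110377-120126093, + strand). Alad (chr4:62505984-62520063) and Urod (chr4:116989965-116994436) share chromosome 4, both on the - strand. Uros lies on chromosome 7 (chr7:133686142-133710467, - strand), Cpox on chromosome 16 (chr16:58670208-58680391, + strand) and Ppox on chromosome 1 (chr1:171276991-171281193, - strand).

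The sequences below are shown because Alas2, Cpox and Uros are the members, Fech aside, whose upstream window holds the letters of a GATA site. Alas1 is shown against Alas2 as the other gene of the first step. Each window is the 250 bases before an annotated RefSeq start in build GRCm38.p6, read 5′ to 3′ on the strand of the gene. Capitals mark the matches to a GATA site (AGATAA or its variants TGATAA, then AGATAG and also TGATAG, both strands) or a CACCC box (CCACACCC, both strands, or CCCCACCC, both strands), the letters bound by GATA1 and KLF1, respectively.
Alas2 (chrX:150547167-150547416, + strand): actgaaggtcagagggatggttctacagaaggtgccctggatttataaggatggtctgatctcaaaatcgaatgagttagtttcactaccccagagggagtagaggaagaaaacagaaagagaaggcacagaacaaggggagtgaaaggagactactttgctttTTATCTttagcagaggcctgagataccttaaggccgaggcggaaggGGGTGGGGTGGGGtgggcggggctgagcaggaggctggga
Alas1, first start (chr9:106247955-106248204, - strand): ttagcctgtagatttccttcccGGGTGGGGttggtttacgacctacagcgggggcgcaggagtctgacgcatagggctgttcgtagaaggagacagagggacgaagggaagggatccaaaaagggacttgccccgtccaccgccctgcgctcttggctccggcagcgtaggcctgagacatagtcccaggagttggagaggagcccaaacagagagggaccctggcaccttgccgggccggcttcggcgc
Cpox (chr16:58669958-58670207, + strand): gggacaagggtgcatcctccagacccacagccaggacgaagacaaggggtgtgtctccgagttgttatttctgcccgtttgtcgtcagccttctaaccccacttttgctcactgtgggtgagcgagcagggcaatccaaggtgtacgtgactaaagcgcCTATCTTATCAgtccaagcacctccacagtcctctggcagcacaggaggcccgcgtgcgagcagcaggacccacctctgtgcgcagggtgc
Uros, second start (chr7:133702501-133702750, - strand): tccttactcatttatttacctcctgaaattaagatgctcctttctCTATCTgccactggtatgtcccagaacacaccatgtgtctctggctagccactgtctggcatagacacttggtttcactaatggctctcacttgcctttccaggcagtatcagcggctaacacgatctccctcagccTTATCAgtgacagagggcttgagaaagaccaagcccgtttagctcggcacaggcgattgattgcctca
Alas2 held a GATA site beginning 86 bases before the start, read as TTATCT on this strand, and a pair of overlapping CACCC boxes beginning 40 and 35 bases before it. In Cpox, CTATCT (91 bases before the start) and TTATCA (86 bases before) overlapped by 1 base. In the window before the second Uros start, CTATCT and TTATCA lay 205 and 68 bases before it, whereas the window of Alas1 held 1 CACCC box (228 bases before) and no GATA site. Windows were taken for 8 members (11 windows, since Alas1, Alad and Uros have 2 starts each), and none was taken for Fech. GATA sites were found in 3 of these 11 windows, beside 26.5% of all 32851 windows, and CACCC boxes in 2 of 11, beside 11.8%. The sterol regulatory element TCACNCCAC, the kind of letters that SREBP factors bind, was found in 0 of the 11 windows and in 1.05% of all windows.

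The iron-responsive element of Alas2 is given as the part of its 5′ UTR that iron regulatory proteins bind. It lies on the + strand of chromosome X and spans exons 1 and 2 (chrX:150547458-150552149, GRCm38), so its 29 bases are joined across an intron in the transcript. The loop is in capitals.
Alas2 iron-responsive element: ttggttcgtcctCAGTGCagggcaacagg
The pattern searched was a bulged C, 5 bases, the loop CAGTGN and 5 bases that pair with the first 5. Of 9 members with a 5′ UTR, 1 held it (Alas2), beside 0.149% of the 20834 genes searched.

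Levels were compared between genes in FPKM, which scales counts to transcript length and library size, the unit in which genes of unequal length can be set side by side. The order over the 6 samples was Cpox (mean 1193 FPKM, range 1043 to 1304), Alas2 (1134, range 959 to 1369), Alad (840, range 802 to 879), Fech (595, range 577 to 615), Urod (466, range 440.2 to 486), Ppox (257, range 233 to 282), Uros (207, range 191 to 229), Slc25a38 (92.8, range 89.0 to 95.6) and Alas1 (3.72, range 2.58 to 5.71). Of these neighbours, only Cpox and Alas2 had ranges that overlapped. Alas2 was above Cpox in control 3 and cholesterol 3, and Cpox was above Alas2 in the other 4 samples. Apart from Alas1, the genes were at or above the 95.4th mean percentile of all genes by FPKM, and Alas1, the ALAS gene of most tissues, was at the 59.2nd.

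**Figure D1:**
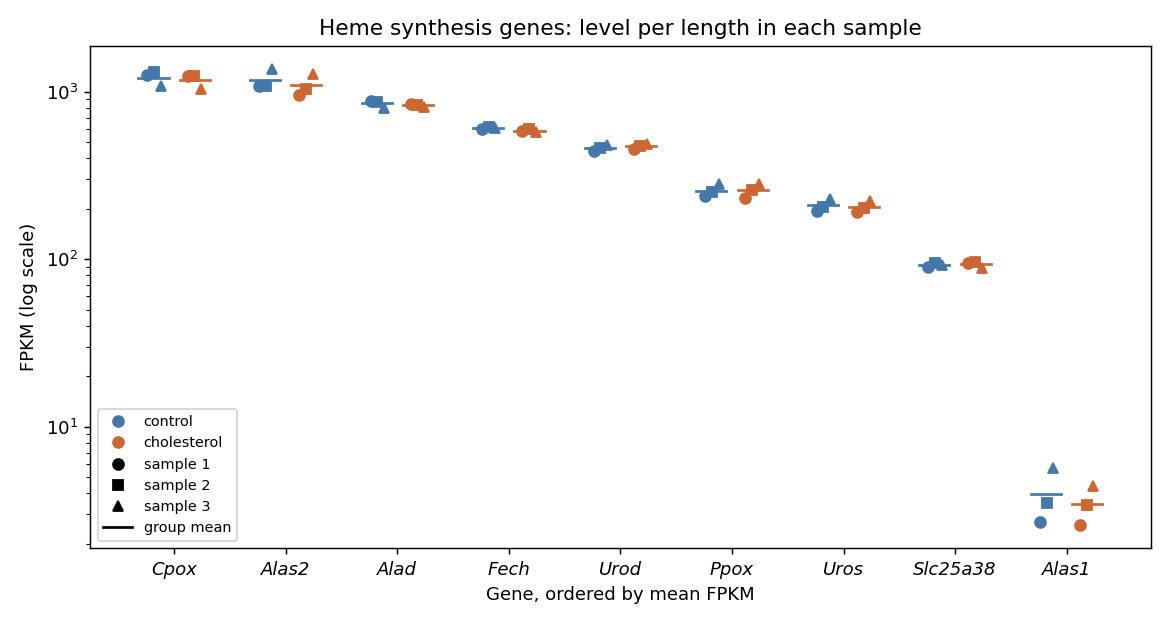
Level per length (FPKM, log scale) of the 9 heme synthesis genes in each of the 6 samples, ordered by mean. Blue marks control and orange cholesterol samples, the symbol gives the sample number and the line the group mean. Alas1 lies far under the other 8 genes, and only Cpox and Alas2 exchange places between samples.

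The ALAS mRNA in these cells was thus almost all erythroid in form. The ratio of Alas2 to Alas1 in FPKM was 398, 311 and 239.8 in control 1, 2 and 3, and 372, 302 and 289.6 in cholesterol 1, 2 and 3. The means were 316 ± 79.1 (SD, n = 3) and 321 ± 44.3 (SD, n = 3), and the groups overlapped. In both groups the sample numbered 3 had the lowest ratio, which goes with the high Alas1 value in those samples.

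Within a gene, samples were compared in CPM, counts scaled to library size with TMM factors, and differences are log2 of cholesterol over control. The 9 fitted differences lay between -0.22 (Alas1) and -0.004 (Urod), and none passed the test with condition alone. Without cholesterol 3 the difference was -0.45 for Alas1 and -0.29 for Alas2, and without control 1 it was -0.43 for Alas1. All 9 fitted differences were negative (47.9% of all genes tested), with a median of -0.07 over the members and 0.006 over all genes. With condition alone and control 3 left out, which leaves cholesterol 3 without its partner, 4 of 9 were negative and the median was 0.007. With the block and both samples numbered 3 left out, 7 of 9 were negative and the median was -0.07. In FPKM 6 of 9 were negative. In edgeR's quasi-likelihood test with condition alone, 0 of 9 members passed an adjusted p of 0.05, 0 had an unadjusted p under 0.05 and DESeq2 also called 0 members. Over all genes, 0.00887% passed as higher (1 gene, Abcg1), 0% passed as lower and 2.63% had an unadjusted p under 0.05. With the sample number as a block, which compares cholesterol with control within same-numbered pairs, 1 of 9 members (Alas2) passed as lower and 0 as higher, beside 5.2% and 1.65% of all genes. In a single simulated data set with added differences between sample numbers, the blocked fit made more false calls than its threshold allows on average. Its adjusted p-values may thus run too low here and below. The simulated spread came from the fit with condition alone and need not match the spread within these pairs, so how far was not tested. In bulk samples, fewer cells of a type and less RNA per cell cannot be told apart.

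The treatment itself was visible in the libraries. Abcg1, a sterol exporter induced by LXR receptors, had 6.93, 4.36 and 6.38 CPM in control 1 to 3 and 101, 93.9 and 99.0 CPM in cholesterol 1 to 3. Its log2 difference was 4.05 (SE 0.18, edgeR adjusted p = 0.00292). Hmgcs1, an enzyme of cholesterol synthesis, had 61.4, 47.6 and 25.6 CPM in the controls and 11.7, 10.9 and 9.66 CPM with cholesterol, groups that did not overlap. Its log2 difference of -2.06 (SE 0.32) did not pass (edgeR adjusted p = 0.864, and 0.0504 with the block).

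At the first step, Alas2 was the member with the smallest p in the blocked edgeR fit. Alas2 had 2177, 2132 and 2841 CPM in control 1, 2 and 3, and 1874, 2025 and 2593 CPM in cholesterol 1, 2 and 3. The groups overlapped, since cholesterol 3 lay above control 1 and 2, but each cholesterol sample was under the control of its own number. The 3 pair differences were -0.22, -0.07 and -0.13. With condition alone the log2 difference was -0.14 (SE 0.17, 95% interval -0.54 to 0.26), which did not pass. With the block Alas2 fell by 0.14 (SE 0.04, 95% interval -0.22 to -0.06, edgeR adjusted p = 0.0382), a decrease of about the same size with a smaller error. Leaving out both samples of a number gave -0.10 (adjusted p = 0.372) without pair 1, -0.17 (0.0620) without pair 2 and -0.15 (0.00692) without pair 3, so the call was lost without pair 1 or pair 2. It was also lost in limma with the block on FPKM (adjusted p = 0.178). With condition alone and control 3 left out, the difference was 0.007.

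Alas1 was low and varied most. It had 7.53, 9.46 and 16.3 CPM in control 1, 2 and 3 (149, 191 and 314 counts), and 6.95, 9.24 and 12.3 CPM in cholesterol 1, 2 and 3 (141, 187 and 241 counts). Both samples numbered 3 were the highest of their groups, and the groups overlapped. The pair differences were -0.12, -0.03 and -0.40, and the log2 difference was -0.22 (SE 0.34, 95% interval -1.05 to 0.60). The block gave -0.20 (95% interval -0.42 to 0.02, edgeR adjusted p = 0.307). The fit with condition alone gave 0.16 without control 3, while the blocked fit without pair 3 gave -0.07.

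Slc25a38, the glycine carrier, had 155, 159 and 162 CPM in control 1 to 3 and 157, 158 and 153 CPM in cholesterol 1 to 3. The 6 samples lay close together and the groups overlapped. The difference was -0.02 in CPM (95% interval -0.15 to 0.10), and 0.01 in FPKM, so its sign depended on the scaling. The blocked interval was -0.11 to 0.07.

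Of the cytosolic enzymes, Alad was the one whose groups were apart. ALAD joins aminolevulinic acid molecules to porphobilinogen. Its mRNA had 1193, 1146 and 1130.1 CPM in control 1, 2 and 3, and 1103, 1087 and 1114 CPM in cholesterol 1, 2 and 3. Every cholesterol sample was under every control in CPM, whereas in FPKM control 3 (802) was the lowest of the 6. The log2 difference was -0.07 (SE 0.06, 95% interval -0.21 to 0.07), and -0.07 with the block (SE 0.04, edgeR adjusted p = 0.343).

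Uros, whose enzyme closes the ring to uroporphyrinogen III, had 303, 309 and 365 CPM in control 1 to 3 and 287, 304 and 345 CPM in cholesterol 1 to 3. Both samples numbered 3 were high and the groups overlapped. The pair differences were -0.08, -0.02 and -0.08, with a log2 difference of -0.06 in both fits (adjusted p = 0.432 with the block), and of 0.03 with condition alone when control 3 was left out. Urod, whose enzyme removes carboxyl groups from the ring, had 590.1, 587 and 653 CPM in the controls and 590.2, 596 and 639 CPM with cholesterol. Its values were nearly level between groups, with a difference of -0.004 in CPM (95% interval -0.18 to 0.17) and 0.03 in FPKM. The blocked interval of Urod was -0.08 to 0.08, narrower than that with condition alone.

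Of the mitochondrial enzymes of the last steps, Fech was under the controls in every cholesterol sample. FECH inserts iron into protoporphyrin. Fech had 1798, 1779 and 1847 CPM in control 1, 2 and 3, and 1677, 1717 and 1724 CPM in cholesterol 1, 2 and 3, so the groups did not overlap. They did not overlap in FPKM either (601 to 615 in the controls and 577 to 595 with cholesterol). The pair differences were -0.10, -0.05 and -0.10. The log2 difference was -0.08 (SE 0.06), and with the block -0.08 (SE 0.04, 95% interval -0.16 to -0.004, edgeR adjusted p = 0.224), so it did not pass. Alad and Fech were thus 2 of 9 members with cholesterol samples all lower in CPM, beside 4.28% of all genes tested.

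Cpox, whose enzyme forms protoporphyrinogen, had 4119.95, 4164 and 3625 CPM in control 1, 2 and 3, and 3957, 3941 and 3438 CPM in cholesterol 1, 2 and 3. Unlike the ALAS genes, Cpox was lowest in the samples numbered 3, and the groups overlapped. Its pair differences were close to each other, at -0.06, -0.08 and -0.08. The log2 difference was -0.07 with condition alone (95% interval -0.29 to 0.15) and -0.07 with the block (95% interval -0.15 to 0.008, edgeR adjusted p = 0.314). With condition alone it was -0.132 without control 3 and -0.0046 without cholesterol 3. Ppox, whose enzyme oxidises protoporphyrinogen, had 493, 514 and 598 CPM in the controls and 465, 526 and 593 CPM with cholesterol. Its pair differences differed in sign (-0.09, 0.03 and -0.01), the difference was -0.02 in CPM (95% interval -0.30 to 0.26), and it was 0.008 in FPKM.

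Over the 9 members, 6 were lower with cholesterol in all 3 pairs (Alas1, Alas2, Alad, Uros, Cpox and Fech), beside 20.1% of all genes tested, and 0 were higher in all 3, beside 19.9%. In lists below, 12 of 15 tested erythroid markers and 7 of 12 mitochondrial iron and porphyrin transport genes were also lower in all 3. The genes higher in all 3 numbered 0 and 1 there. Of the 8 genes of precursor supply, 1 was lower in all 3 and 2 were higher. Exons of Alas1 share 465 bases with 4930500F10Rik, those of Alas2 311 bases with Apex2, those of Ppox 791 bases with B4galt3 and those of Cpox 204 bases with Gpr15, each on the opposite strand. The strand setting of the counting is not given in the sources used here, so reads of these stretches cannot be told apart. Apex2 was at 10.4 to 12.4 FPKM, B4galt3 at 24.5 to 32.6 and Gpr15 at 0 to 0.23, each under its partner. For 4930500F10Rik, which overlaps the member with the lowest level, no value was analysed here.

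**Figure D2:**
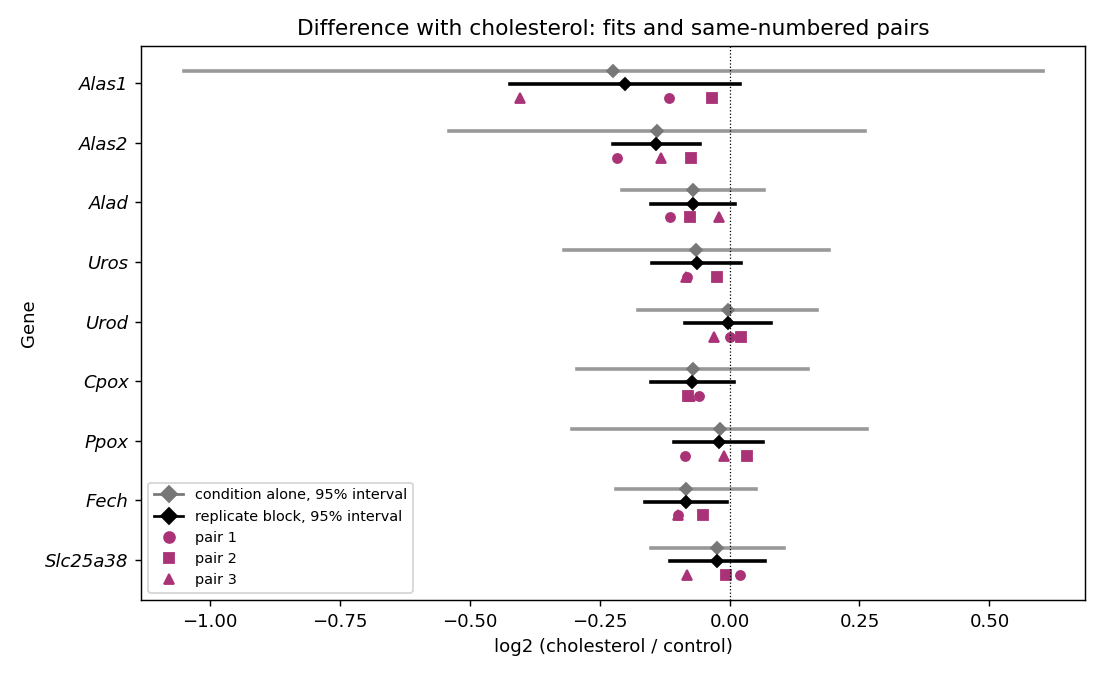
Log2 difference of cholesterol against control for each heme synthesis gene. Grey diamonds and lines give the fit with condition alone and black ones the fit with the replicate block (estimate and 95% interval), and the purple symbols give the 3 same-numbered pairs. The intervals of Alas1 and Alas2 narrow most with the block, and those of Alas2 and Fech then lie under 0, with the upper bound of Fech at -0.004.

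The members differed in how far they varied with the sample number. For 7 of 9 members, all but Alad and Fech, the range of the 3 pair means was larger than the difference between the groups, a share not above the 87.1% of all genes tested. This range was 0.97 on the log2 scale for Alas1, 0.43 for Alas2, 0.32 for Ppox, 0.27 for Uros, 0.20 for Cpox and 0.13 for Urod. It was at most 0.04 for Alad, Fech and Slc25a38. Relative to the mean of samples 1 and 2, the sample numbered 3 was 0.40 higher in the controls and 0.41 higher with cholesterol for Alas2. The same quantity was 0.25 and 0.22 for Uros, 0.25 and 0.26 for Ppox, 0.15 and 0.11 for Urod, and -0.19 and -0.20 for Cpox. For Alas1 it was 0.95 in the controls and 0.62 with cholesterol. The members thus fell into genes that were high in both samples numbered 3 (Alas1, Alas2, Uros, Ppox, Urod), 1 that was low in both (Cpox) and 3 that hardly varied.

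**Figure D3:**
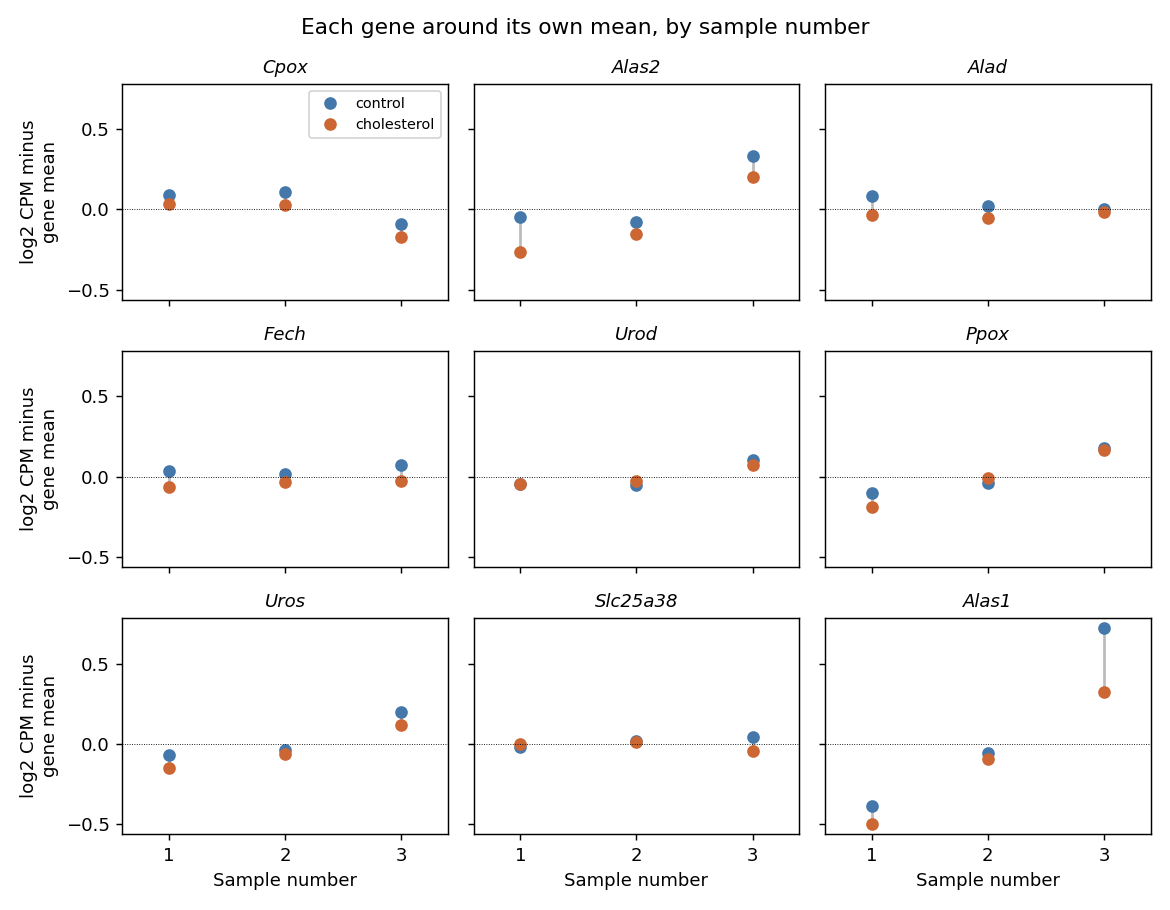
Log2 CPM of each heme synthesis gene minus its mean over the 6 samples, by sample number, with control in blue, cholesterol in orange and a grey line joining the pair. Alas1, Alas2, Uros and Ppox are high in both samples numbered 3 and Cpox is low in both, while Alad, Fech and Slc25a38 stay within 0.09 of their means.

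Genes were ranked by how closely their pattern over the 6 samples followed Alas2, as the root mean square difference of log2 CPM after each gene was centred on its mean. Among the nearest 5 of all genes tested were Samhd1 (0.028), Kbtbd7 (0.034) and Wwp2 (0.034). The choice of measure mattered, since 0 of these 5 were among the first 5 by Pearson correlation. Samhd1, a dNTP hydrolase, had 161, 156 and 209 CPM in control 1 to 3, and 140.5, 145 and 197.5 CPM in cholesterol 1 to 3. Wwp2, a ubiquitin ligase, had 128.5, 127.7 and 170.4 CPM in the controls and 110.7, 120.4 and 164.1 CPM with cholesterol. In both genes, as in Alas2, the samples numbered 3 were the highest and each cholesterol sample was under its control. Among the members, the one nearest to Alas2 was Uros (0.0904), and Uros itself was nearer to Ppox (0.0378). Alad and Fech were nearest to each other (0.0385). Cpox had no close neighbour, with Alad nearest at 0.0915.

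The genes around the pathway were described by 7 further lists with 68 genes, of which 64 were tested. With condition alone 0 passed in edgeR (3 had an unadjusted p under 0.05, and DESeq2 called 0), and their median log2 difference was -0.03. With the block 5 passed as higher and 5 as lower, beside 1.65% and 5.2% of all genes. None of these 10 passed in limma with the block on FPKM. Without pair 1, 2 or 3, Lonp1 passed in all 3 fits, Tspo2 and Isca2 in 2, Slc25a37, Tspo, Aco1, Nfe2 and Ldb1 in 1 and Bcl11a in 0.

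The supply of precursors held no call with either fit among its 8 genes. The mean of Slc6a9, the glycine transporter of the plasma membrane, was 553 ± 21.8 CPM in the controls and 535 ± 34.6 with cholesterol (SD, n = 3 each). Shmt2, the mitochondrial enzyme that makes glycine from serine, had a blocked log2 difference of 0.10 (edgeR adjusted p = 0.238). That of Suclg2, a subunit of succinyl-CoA ligase, was 0.09 (0.496).

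Of the 12 genes of mitochondrial iron and porphyrin transport, 2 fell and 1 rose with the block. Slc25a37 (mitoferrin 1), which carries iron into erythroid mitochondria for FECH, had 3742, 3686 and 3762 CPM in control 1, 2 and 3, and 3213, 3233 and 3468 CPM in cholesterol 1, 2 and 3. The groups did not overlap, and Slc25a37 fell by 0.18 with the block (edgeR adjusted p = 0.00860). Without pair 1 or 2 it was -0.15 (adjusted p = 0.154) and -0.17 (0.0683), and without pair 3 it was -0.21 (1.17e-05). Tspo2, an erythroid membrane protein that binds cholesterol, had 109, 134 and 179.7 CPM in control 1, 2 and 3, and 121, 155 and 206 CPM in cholesterol 1, 2 and 3. Each cholesterol sample was above its control, and Tspo2 rose by 0.19 with the block (adjusted p = 0.0101). Its relative Tspo, which is found in most tissues, fell by 0.16 (adjusted p = 0.0427). Abcb10, which stabilises mitoferrin 1, and Tmem14c, a porphyrinogen carrier, had blocked differences of -0.09 (0.208) and -0.07 (0.356).

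Iron-sulfur cluster assembly makes the cluster that FECH holds. Of its 14 genes tested, 1 rose and 1 fell with the block. Isca2, a late factor for 4Fe-4S clusters, had 81.5, 76.1 and 77.8 CPM in the controls and 67.0, 69.6 and 66.2 CPM with cholesterol. The groups did not overlap, and Isca2 fell by 0.21 (edgeR adjusted p = 0.0120). Of 5 tested genes that turn over ALAS or bind heme enzymes, 1 rose. Lonp1, a mitochondrial protease that degrades ALAS1, had 136, 127 and 110.1 CPM in control 1 to 3, and 158, 143 and 130.3 CPM in cholesterol 1 to 3. It rose by 0.21 with the block (adjusted p = 0.00480).

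Of 9 tested genes of heme export, uptake and degradation, 0 passed with either edgeR fit (1 had an unadjusted p under 0.05 with the block). Blvra, a biliverdin reductase, had the smallest p, with a blocked difference of -0.16 (edgeR adjusted p = 0.0667) and groups that did not overlap. The heme oxygenases Hmox1 (0.20, adjusted p = 0.393) and Hmox2 (-0.15, 0.271) did not pass. Of 8 genes of heme sensing and iron-responsive control, 1 fell with the block. This was Aco1, the gene of iron regulatory protein 1, the kind of protein that binds the Alas2 element printed above. Aco1 had 17.1, 16.4 and 15 CPM in the controls and 12, 13.1 and 12.5 CPM with cholesterol, with no overlap, and fell by 0.37 with the block (edgeR adjusted p = 0.0121). Eif2ak1, the heme-regulated kinase, had a blocked difference of -0.03 (0.787).

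Of 8 erythroid transcription factors, 2 rose and 1 fell with the block. Ldb1, the bridging protein of the GATA1 complex, had 198, 189.5 and 158 CPM in the controls and 231, 219 and 177 CPM with cholesterol, and rose by 0.20 (edgeR adjusted p = 0.00611). Bcl11a, a repressor of globin genes, rose by 0.17 (0.0337), with groups that did not overlap. Nfe2, a subunit of an erythroid activator of globin genes, fell by 0.15 (0.0373). Gata1 and Klf1, the factors of the GATA site and the CACCC box, did not pass. Gata1 had 550, 512 and 526 CPM in the controls and 507, 499 and 512 CPM with cholesterol, a blocked difference of -0.07 (adjusted p = 0.406). Klf1 had a blocked difference of -0.04 (0.602).

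**Figure D4:**
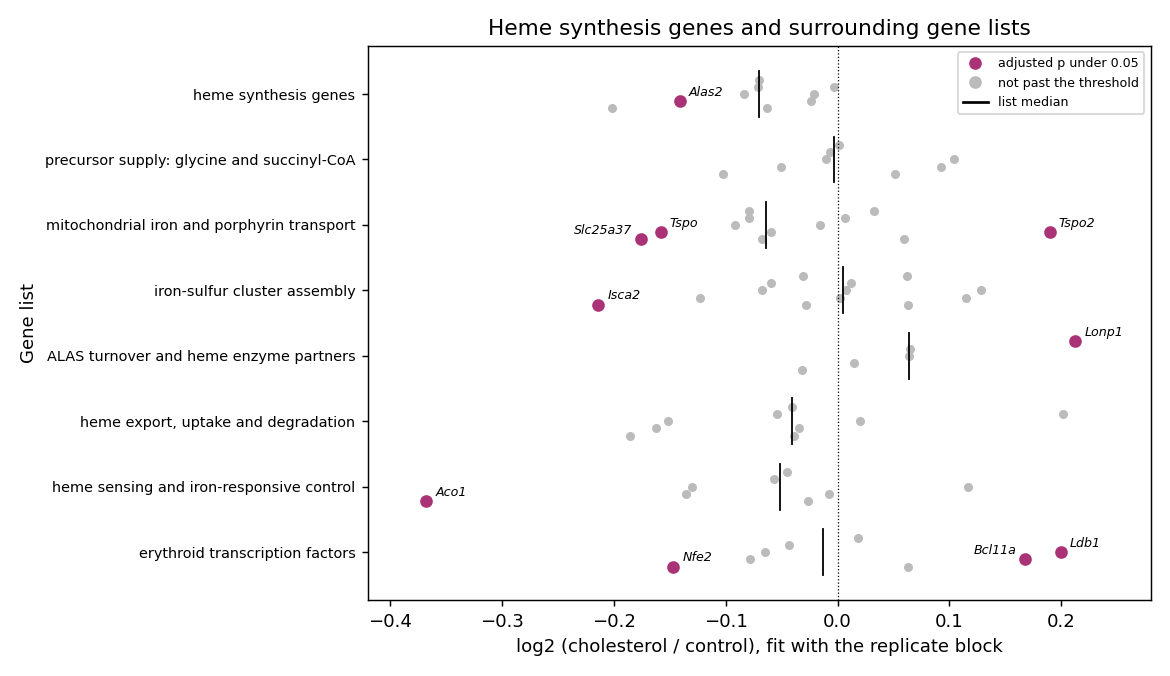
Log2 difference of cholesterol against control, from the fit with the replicate block, for the heme synthesis genes and 7 lists of genes around the pathway. Each point is a gene, purple and named where the adjusted p was under 0.05, and the bar is the median of the list. Alas2 is the one heme synthesis gene past the threshold, and of the genes drawn from the other lists 4 lie past it as higher and 5 as lower.

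Sequencing depth was even, with 19826849 to 20061724 counts per sample, of which the 9 members took 1.03% to 1.1% and the adult globins 12.5% to 17.9%. Erythroid markers, 15 of 16 in the tables, summed to 157000 to 209800 CPM in the controls and 141500 to 187700 CPM with cholesterol. With condition alone the fitted difference was negative for 13 of the 15 and positive for 2, and none passed. With the block 4 of the 15 fell (Tfrc, Hba-a2, Hbb-bs and Hbb-bh1). Markers of other cells were low but differed between samples. The 10 granulocyte markers summed to 70.3, 253 and 673.5 CPM in control 1, 2 and 3, and to 40.5, 109.8 and 280.4 CPM in cholesterol 1, 2 and 3. The 10 macrophage markers summed to 29.7 to 298 CPM in the controls and 20.9 to 111 CPM with cholesterol, again highest in the samples numbered 3. The 8 mast cell and basophil markers in the tables summed to 7.68 to 30.8 CPM and 2.86 to 5.62 CPM, with Tpsb2 at 0 in every sample. With the block 9 of 9 tested granulocyte markers, 3 of 3 mast cell and basophil markers and 5 of 10 macrophage markers fell, and 1 macrophage marker (Cd5l) rose. The 8 megakaryocyte markers summed to 84.5 to 104 CPM and 80.6 to 91.3 CPM, with 1 of 8 (Itga2b) lower. The 8 hepatocyte markers summed to 125 to 361 CPM and 86.7 to 303 CPM, with 0 of 8 passing in either fit in edgeR and 0 with an unadjusted p under 0.05. The granulocyte, macrophage, erythroid and hepatocyte sums were all highest in the same 2 samples as Alas1 and Alas2. Not every erythroid marker followed its sum. Tfrc had 2683 CPM in control 3 and 2482 CPM in cholesterol 3, each the lowest of its group. In control 3 and cholesterol 3, the erythroid sums were 209800 and 187700 CPM (at most 168400 in the other 4), the hepatocyte sums 361 and 303 CPM (at most 263.5) and the adult globin shares 17.9% and 16.2%. The part of any of these in the values of the members was not tested.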

How the data were processed

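Poly(A) RNA from TER119+ mouse fetal liver erythroblasts was sequenced as single-end 50-base reads in 3 control and 3 cholesterol samples. The authors deposited expected counts per gene, estimated counts without normalization, of which 27.9% to 29.5% per sample were fractional. A second deposited table names no unit and was taken as FPKM, because count and value imply a similar gene length across samples (highest within 5% of the lowest for 73.3% of the 11228 tested genes with a value in every sample). The submitters' processing notes list HISAT2 2.0.4, Bowtie2 2.2.5, RSEM 1.2.12, DESeq2 1.4.5 and GRCm38.p6. The strand setting and annotation are not given in the sources used here. The members and gene lists were chosen with earlier results of these data known. One enzyme step of the pathway and a few genes that the naming rule would take are not reported here.

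Expected counts were rounded and tested with edgeR 4.0.16 in R 4.3.3 (filterByExpr with a minimum of 10 counts and 15 in total, TMM, robust quasi-likelihood test, Benjamini-Hochberg adjustment over 11277 genes). Standard errors came from the F statistic. The smallest detectable level was taken as 3 counts, about 0.15 CPM, and covers counting error only. The main model held condition alone. Samples carry the numbers 1 to 3 in both groups in the labels, which do not say what these mark. Deviations from the group means correlated within numbers (0.689, 0.30 and 0.798 over 11277 genes). The numbers were taken to pair the samples, and the model with the number as a block is given beside the main one. Correlations between unlike numbers were not computed, so the pairing is an assumption. No library was a copy of another (chi-square per degree of freedom at least 8.74). With 3 against 3 samples an exact permutation test of 1 gene cannot reach 0.05 and was not used. Alternatives were DESeq2 1.42.0, limma 3.58.1 on log2(FPKM + 1) and log2(FPKM + 0.1), other scaling and filters, globin genes left out, and samples or pairs left out.

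Named were all 9 members. From each other list, apart from the markers, came the genes past the threshold in either fit (up to 4) or else the 2 with the smallest blocked p, with Slc25a37, Abcb10, Tmem14c, Slc6a9, Hmox1, Eif2ak1, Gata1 and Klf1 always given. The 5 genes most like Alas2, and Abcg1 and Hmgcs1 as a check of the treatment, were also named. Marker lists are given by their sums. Cd5l, Itga2b, Tfrc and the globin genes lie outside this rule and were named after their values were seen. Promoter windows came from RefSeq and the 5′ UTR from GENCODE.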

Additional observations from a re-analysis of the deposited data

How the results depend on the processing

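Over 21 alternatives, Alad, Cpox and Fech stayed negative in all 21, Alas1, Alas2 and Uros in 20, Slc25a38 in 16, Ppox in 14 and Urod in 12. Alas2 was the one member called in any of them, with adjusted p from 0.00692 to 1. With the replicate block, 1 member was called lower (Alas2, -0.14, adjusted p = 0.0382), also without the globin genes (1, -0.14, 0.0345) and in DESeq2 with the block (1, -0.14, 0.0319). Leaving out both samples of a number in the blocked fit gave 0 to 1 members called lower, with Alas2 called only without pair 3 (-0.15, 0.00692). In limma with the block Alas2 was not called (adjusted p = 0.178). The other heme and iron-sulfur lists had 5 genes called higher and 5 lower with the block, 5 and 5 without globins and 2 and 1 in DESeq2 with the block and 0 and 0 in limma with the block, and pairs left out gave 1 to 4 higher and 0 to 8 lower. Over all genes, calls went from 1 higher and 0 lower to 186 and 586 with the block, 177 and 562 with the block and no globins, 3 and 28 in DESeq2, 41 and 248 in DESeq2 with the block and 14 and 35 in limma with the block. With pairs left out they were 118, 67 and 210.0 higher and 703, 229 and 516 lower (without pair 1, 2 and 3), and with single samples left out up to 7 lower (without control 3). Other settings changed no call among the members.

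Signs near 0 turned. With total counts only, Urod was 0.0267, Ppox 0.0106 and Slc25a38 0.00705. In limma on FPKM, Urod was 0.0326, Ppox 0.00765 and Slc25a38 0.0126 with a pseudocount of 1, with or without the block, and 0.0327, 0.00767 and 0.0127 with 0.1. The median of all genes was itself 0.0274 to 0.0368 in these settings. Without a filter Urod was 0.00112. Leaving out single samples or pairs gave Alas1 -0.451 to 0.161, Alas2 -0.287 to 0.00722, Uros -0.139 to 0.0265, Urod -0.0373 to 0.0482, Ppox -0.108 to 0.0688 and Slc25a38 -0.0424 to 0.0043. In the blocked fit the sign turned for Ppox without pair 1 (0.0133) and for Urod (0.00893) and Slc25a38 (0.0043) without pair 3. The cause was not tested. The mean ratio of Alas2 to Alas1 was 229.6 in the controls and 233 with cholesterol from CPM instead of FPKM, which leaves out transcript length. Ranked by Pearson correlation, 0 of the 5 genes most like Alas2 were shared. Depth limits Alas1 most, with 141 to 314 counts a sample.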
